A study of Mus musculus with 6 samples.

Results

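The replication-dependent histone genes were described here by the accessibility of chromatin at their starts, before and 24 h after injury of the mouse olfactory epithelium. Members were the protein-coding genes of GENCODE M21 on GRCm38 whose symbol begins with Hist1h, Hist2h, Hist3h or Hist4h. The rule found 67 of 21938 protein-coding genes, of which 54 lie on chromosome 13 and 13 elsewhere, with 10 on chromosome 3, 1 on chromosome 6 and 2 on chromosome 11. By class they are 6 H1, 18 H2a, 18 H2b, 12 H3 and 13 H4 genes.

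Histones package DNA into nucleosomes. The core particle is built of H2A, H2B, H3 and H4, and H1 binds the linker between particles. Replication-dependent histone genes supply new histones for DNA that is being copied, so most of their transcription falls in S phase, at clusters gathered in nuclear histone locus bodies organised by NPAT. Their mRNAs end in a stem-loop bound by SLBP, not in a poly(A) tail. Horizontal basal cells are the reserve stem cells of the olfactory epithelium. They are quiet in undamaged tissue and are activated when the epithelium above them is lost.

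Single-cell ATAC-seq records where the transposase cuts open chromatin, and each end of a fragment was counted as 1 cut site. All 6 libraries came from adult mice that carried Krt5Cre-ER and the reporter Rosa26-LSL-YFP/LSL-YFP, in which Krt5-driven, inducible Cre marks basal cells and whatever descends from them with YFP. The dorsal epithelium of each animal was dissociated on its own, and YFP-positive, propidium iodide-negative cells were sorted. The 3 uninjured libraries had no injury, and the 3 injured libraries were taken 24 h after intraperitoneal methimazole, a drug toxic to the olfactory epithelium. In both groups replicate 1 was 8 weeks old, replicate 2 was 6 weeks and replicate 3 was 6 to 7 weeks.

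The libraries held between 420 and 1338 barcodes with at least 2000 fragments, called cells here, and between 14825320 and 44875242 cut sites in them. The share of cut sites in the windows within 1 kb of a start was 27.7% to 29.4% in uninjured and 21.7% to 24.4% in injured libraries, so the choice of scaling matters below. Of 4420 cell barcodes, 53 occurred in more than 1 library. Uninjured replicate 3 and injured replicate 3 shared 34, while every other pair shared 0 to 4. In the 34 shared barcodes 82002 fragments were identical between the libraries, 5.97% of the smaller side. The 1 barcode shared by injured replicates 1 and 2 had 5480 identical fragments, 91.7% of the smaller side. Injured replicate 2 also shared 17298 identical fragments with uninjured replicate 1 in 4 barcodes (20.6%) and 9890 with uninjured replicate 2 in 3 barcodes (33.6%). Results are given with and without these libraries where they differ. The deepest barcode of injured replicate 2 held 14.7% of that library's cut sites. With 1746401 fragments, it is the barcode shared with injured replicate 1. It was also among those shared with uninjured replicates 1 and 2. Those barcodes held 1989077 and 1814544 fragments in injured replicate 2, where the second deepest barcode held 167522. Windows of the basal cell markers Krt5 (101 ± 25.0 and 93.0 ± 21.05 CPM, cut sites per 1000000 in the windows tested, SD, n = 3 uninjured and 3 injured), Krt14 (88.03 ± 20.1 and 114.8 ± 23.0), Icam1 (145.8 ± 29.6 and 90.6 ± 10.7), Itgb4 (91.5 ± 5.03 and 85.6 ± 16.98) and Krt15 (25.5 ± 4.49 and 17.8 ± 2.90) were open. Icam1 fell after injury (log2 change -0.67, adjusted p = 0.0250, edgeR), a call lost without uninjured replicate 1 or 2 or injured replicate 2 (0.0511 to 0.105). The window at the 5′-most start of Trp63 stood at 2.59 ± 0.401 and 3.58 ± 0.416, and that of Itga6 at 0.927 ± 0.130 and 1.33 ± 0.310. The summed level of 5 immune markers was 3.81 to 6.35 in uninjured and 11.9 to 20.2 in injured libraries, with Coro1a at 0 in uninjured replicate 1 and injured replicate 2. Of the 4 immune markers tested, Csf1r rose by a log2 of 1.99 (adjusted p = 0.0143, edgeR), and the call was lost without uninjured replicate 1 or 2 or injured replicate 1 or 2 (0.0599 to 0.114). The summed level of 5 sustentacular markers was 53.3 to 94.8 before and 31.8 to 35.1 after injury. Of these 5, Ermn fell from 42.4 ± 9.44 to 16.6 ± 2.45 CPM (SD, n = 3 each; log2 change -1.35, adjusted p = 0.00378, edgeR) and the others did not pass the test. Injured replicate 3 had the highest sum of 5 sensory neuron markers (149.6, against 76.8 to 100.9 in the other libraries) and the lowest sums of 7 basal cell markers (322.8, against 382.2 to 543.2) and 3 gland markers (125.2, against 156.0 to 186.0). Levels are sums over cells, so a change in the mix of cells and a change within cells cannot be told apart in them. The part of these shifts in the results on histone genes was not tested.

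Member promoters carry short sequences in common, which the rule did not use. RefSeq promoters of GRCm38.p6 were matched for 62 of the 67 members, and the 250 bases before each start were searched on both strands. CCAAT, the letters bound by CCAAT-box factors, was found in 51 of 62 members against 33.8% of all 32851 promoters in the table. It was in 6 of 6 H1, 18 of 18 H2a and 16 of 16 H2b promoters, but in 3 of 12 H4 promoters. TATAAA, the letters of the TATA box, was in 29 of 62 members and in 12.4% of all promoters. It was counted at any place in the 250 bases, so a match need not be a TATA box. The octamer ATTTGCAT was in 7 of 18 H2a and 6 of 16 H2b promoters, in none of the 28 others, and in 1.6% of all promoters. GGTCCG was in 9 of 12 H4 promoters and in 6.72% of all promoters. In 6 of these 9 it began 46 or 47 bases before the start. A match describes these letters only, and no motif contains another.

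The 60 bases before the RefSeq start of these 9 H4 genes are shown because they include Hist1h4i, the H4 member that rose after injury. Capitals mark GGTCCG and, where present, TATAAA. Each is written 5′ to 3′ in the direction of the gene.
Hist1h4i, chr13:22041363-22041422, minus strand: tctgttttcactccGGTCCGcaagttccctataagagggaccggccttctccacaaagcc
Hist1h4m, chr13:21811686-21811745, plus strand: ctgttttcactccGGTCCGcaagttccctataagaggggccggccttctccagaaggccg
Hist1h4n, chr13:21832198-21832257, minus strand: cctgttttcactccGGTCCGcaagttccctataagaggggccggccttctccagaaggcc
Hist1h4c, chr13:23698459-23698518, minus strand: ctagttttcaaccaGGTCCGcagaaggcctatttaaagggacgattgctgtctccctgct
Hist1h4d, chr13:23581508-23581567, plus strand: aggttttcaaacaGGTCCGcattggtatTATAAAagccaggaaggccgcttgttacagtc
Hist1h4f, chr13:23551669-23551728, minus strand: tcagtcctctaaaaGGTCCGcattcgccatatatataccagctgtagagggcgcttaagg
Hist4h4, chr6:136804432-136804491, minus strand: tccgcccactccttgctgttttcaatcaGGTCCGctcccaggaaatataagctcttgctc
Hist1h4k, chr13:21750554-21750613, minus strand: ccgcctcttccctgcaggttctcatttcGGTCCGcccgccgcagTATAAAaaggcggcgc
Hist1h4j, chr13:21734974-21735033, plus strand: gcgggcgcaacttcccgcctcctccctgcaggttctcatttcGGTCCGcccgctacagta

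By the mean over all 6 libraries, the highest member windows were those of a divergent pair, Hist1h2ac and Hist1h2bc (131.3 and 133.5 CPM before and 156.4 and 159.9 CPM after injury, with Hist1h4a and Hist1h4h higher before it), whose starts face away from each other across the 239 bases of GRCm38 printed next, in the direction of Hist1h2ac. Capitals mark CCAAT, ATTTGCAT and TATAAA or their reverse complements. The 120 bases before Hist1h1c, the linker histone gene that rose after injury, follow with CCAAT in capitals.
Hist1h2ac to Hist1h2bc, chr13:23683960-23684198, minus strand: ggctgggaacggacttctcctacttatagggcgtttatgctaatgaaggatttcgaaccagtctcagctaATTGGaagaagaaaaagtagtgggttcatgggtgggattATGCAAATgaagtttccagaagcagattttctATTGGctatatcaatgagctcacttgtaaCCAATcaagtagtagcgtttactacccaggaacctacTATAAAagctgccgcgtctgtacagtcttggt
Hist1h1c, chr13:23738687-23738806, plus strand: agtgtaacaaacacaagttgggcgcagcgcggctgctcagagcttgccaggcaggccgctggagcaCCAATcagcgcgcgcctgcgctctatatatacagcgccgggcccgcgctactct

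Most member windows were open in every library. The values that follow are CPM in the window of 1 kb on each side of the start. The median of the 61 members that passed the filter on low counts was 85.2 CPM, against 49.1 CPM over all 17469 windows tested. Many member windows overlap, so some hold more than 1 start and count the same cut sites. The part of this in the level was not tested. Members that passed the filter are not all members. Of the 6 others, Hist1h2bq, Hist1h2ao, Hist1h2ap and Hist1h2br had 0 cut sites in all 6 libraries. Every 50-base stretch of those 4 windows occurs more than once in GRCm38, so short reads from them have no unique place, and no accessibility is given for them. The germ-line pair Hist1h2aa and Hist1h2ba, known from testis, had 14 and 15 cut sites over all libraries. Of their stretches, 7.07% are repeated.

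Among linker histones the highest mean level over the 6 libraries was that of Hist1h1c (101.0 CPM), next to Hist1h1e (100.5 CPM), which was higher before injury (96.0 against 82.6 CPM). The lowest was that of Hist1h1d (1.70 CPM). The 5′-most GENCODE start of Hist1h1d lies 1770 bases upstream of its RefSeq start, so its window does not cover that RefSeq start. Hist1h1t, the testis linker histone, stood at 7.65, 7.03 and 7.82 CPM in uninjured and 12.6, 11.3 and 11.5 CPM in injured libraries. Among core histones the highest means over the 6 libraries were 143.8 CPM at Hist1h2ac for H2a and 146.7 CPM at Hist1h2bc for H2b. For H3 and H4 they were 109.4 CPM at Hist1h3f and 140.4 CPM at Hist1h4h. The lowest were 7.93 CPM at Hist2h3c1 for H3 and 10.4 CPM at Hist1h4n for H4. Among members tested, the lowest were 19.9 CPM at Hist2h2aa2 for H2a and 35.2 CPM at Hist3h2ba for H2b. Hist1h2ap and Hist1h2bq stood at 0, but as unplaceable windows these are not read as levels. Ranks among near neighbours differed before injury, when Hist2h2ac (131.7 CPM) lay above Hist1h2ac, Hist1h3a (109.8 CPM) above Hist1h3f (107.4 CPM), Hist1h4a (142.4 CPM) above Hist1h4h (139.5 CPM) and Hist2h3c2 (6.82 CPM) below Hist2h3c1 (7.26 CPM). The low H3 and H4 members sit in repeated sequence: 78.5% of the stretches of the Hist2h3c1 window and 92.0% of those of the Hist1h4n window occur elsewhere too.

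**Figure D1:**
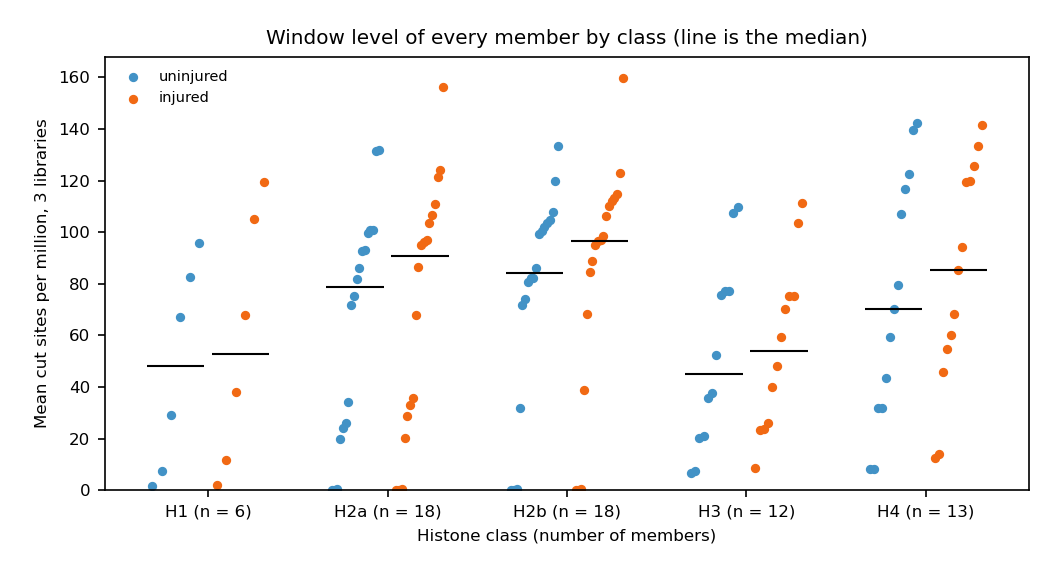
Mean CPM of cut sites in the 2 kb window of each member (points), over 3 uninjured and 3 injured libraries, by histone class, with a line at the median. Within each class the lowest member lay at or under 10.4 and the highest at or above 101.0 (mean of all 6 libraries), and the classes overlapped. Hist1h2bq, Hist1h2ao, Hist1h2ap and Hist1h2br, where no read has a unique place, are drawn at 0 and count in the medians.

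The chromosome 13 genes lie in 2 groups of starts, at chr13:21715143-22044214 with 23 members and chr13:23530050-23935462 with 31 members, windows included. Open chromatin in both stretches was concentrated at the members. In the first stretch the member windows cover 9.21% of the length of the 10 kb bins and held 52.5% to 56.0% of their cut sites over the 6 libraries. In the second they cover 11.8% of the length and held 68.2% to 74.5%. The 9 other protein-coding genes within the stretches mostly had low levels, with a median of 4.41 CPM over the 8 tested. Zfp184, a zinc finger gene, was the highest at 103 ± 7.38 CPM before and 91.6 ± 10.6 CPM after injury (SD, n = 3 each). Next came Hfe (19.3 ± 6.02 and 22.8 ± 5.48 CPM) and Pom121l2 (9.70 ± 4.11 and 15.9 ± 0.561 CPM). None of these 8 passed the test between groups.

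The first comparison asked which histone genes changed in accessibility within a day of injury. By the quasi-likelihood test of edgeR, with Benjamini-Hochberg adjustment over all windows and a threshold of 0.05, 3 of the 61 members tested rose and 0 fell. Among all 17469 windows, 2.13% rose and 1.47% fell, so the count of members is close to the background. The median log2 change was 0.17 over members, 0.18 over the 48 tested on chromosome 13 and 0.06 over the 13 elsewhere, against 0.01 over all windows. With GC offsets the medians were 0.07 on chromosome 13 and 0.08 elsewhere, and without injured replicate 1 they were 0.08 and -0.07. The estimate was above 0 for 50 of 61 members, against 51.7% of all windows. It was above 0 for 40 with GC offsets, 15 by total cut sites and 5 with factors from 10 kb bins across the genome. Of all 17469 windows, 8835, 4260 and 2545 were above 0 under these settings. At an unadjusted p under 0.05 there were 17 members with a positive and 1 with a negative estimate, against 10.7% and 10.6% of all windows. In 13 members every injured library lay above every uninjured one, and in 0 the reverse held. Over all windows the shares without overlap were 13.8% and 13.4%. Member windows overlap and share cut sites, so these counts are not independent: the 67 windows merge into 38 stretches, of which 16 hold 1 member, 15 hold 2 and 7 hold 3.

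Hist2h3c2, an H3 gene on chromosome 3, had the largest change. Its window (chr3:96238127-96240127) held 6.20, 6.93 and 7.33 CPM in uninjured and 29.3, 25.4 and 15.4 CPM in injured libraries. The groups did not overlap, and the log2 change was 1.77 ± 0.28 (SE, adjusted p = 0.00529, edgeR). Most of the cut sites gained lay at the far end of this gene of 1 exon (chr3:96238108-96239127, minus strand, coding part 96238534 to 96238941), where the annotated 3′ UTR ends. Over chr3:96238001-96238300, which spans that gene end, the libraries held 3.10, 2.93 and 1.56 CPM before and 24.6, 14.1 and 9.46 CPM after injury. Nearer the start the gain in CPM was smaller, from low levels. The first 500 bp held 0.620, 0.488 and 0.489 CPM before and 1.66, 2.86 and 0.697 CPM after. The 1 kb upstream held 3.72, 3.42 and 4.50 CPM before and 7.58, 6.73 and 3.88 CPM after, with overlapping groups. Within it, the 250 bases next to the start held 0.827, 0.879 and 1.07 CPM before and 0.872, 1.52 and 0.996 CPM after. With a window of 500 bp either side the log2 change was 0.91 (adjusted p = 0.287, edgeR). Its near-identical neighbour Hist2h3c1 had a log2 change of 0.25 ± 0.34 (SE, adjusted p = 0.709, edgeR). Of the stretches of the Hist2h3c2 window 77.6% are repeated, with 89.7% upstream of the start and 64.8% downstream of it. Reads of the copies may thus be split or lost. Low values near the start need not mean closed chromatin, and the place of the gain holds only for reads that could be placed.

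Hist1h4i, an H4 gene in the first chromosome 13 stretch, held 31.4, 31.3 and 32.6 CPM in uninjured and 62.5, 54.5 and 47.2 CPM in injured libraries (window chr13:22040362-22042362). Every injured library lay above every uninjured one, with a log2 change of 0.78 ± 0.14 (SE, adjusted p = 0.00817, edgeR). Of the stretches of this window 10.0% are repeated, with 0% upstream of the start and 20.6% downstream of it. Hist1h1c, a linker histone gene, held 83.3, 78.1 and 86.5 CPM before and 132.9, 128.6 and 96.5 CPM after injury (window chr13:23737808-23739808). Its log2 change was 0.53 ± 0.11 (SE, adjusted p = 0.0242, edgeR), and injured replicate 3 lay nearest to the uninjured libraries for all 3 called members.

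**Figure D2:**
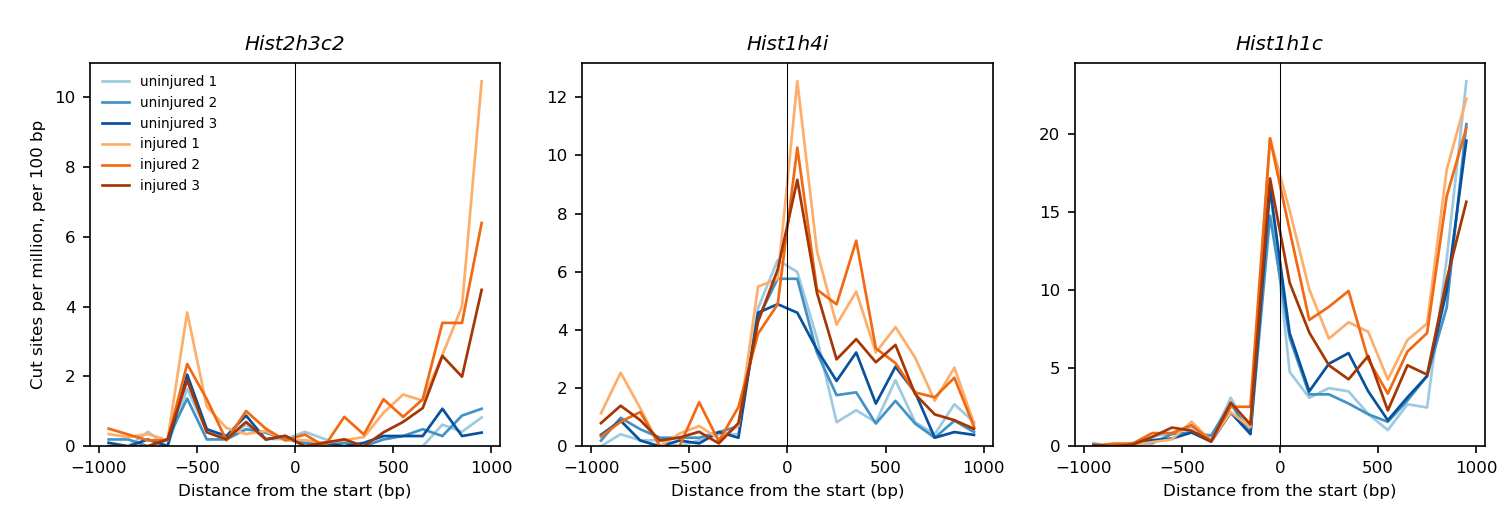
CPM of cut sites in 100 bp steps by distance from the start (positive into the gene) for the 3 members that rose, with 1 line per library. At Hist2h3c2 the injured libraries separate at the far end of the window, and at Hist1h4i and Hist1h1c they separate just inside the start.

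The next members missed the threshold. Hist1h2bl, Hist1h4b, Hist1h4k and Hist1h2ai had log2 changes of 0.33 to 0.52 with adjusted p from 0.0516 to 0.0655 (edgeR), and their groups did not overlap. Hist1h2bl and Hist1h2ai are a divergent pair and share most of a window. Hist1h4m had a larger estimate, 0.81 ± 0.29 (SE, adjusted p = 0.129, edgeR), from low levels of 10.1, 6.64 and 7.82 CPM before and 15.4, 16.3 and 10.9 CPM after. The most negative estimates were those of Hist1h4a (log2 change -0.25 ± 0.11), Hist1h3c (-0.11 ± 0.10) and Hist2h2ab (-0.10 ± 0.11), and none passed this test. They fell by total cut sites (log2 changes -0.54, -0.40 and -0.39, adjusted p = 0.00230, 0.00950 and 0.0118, edgeR). They also fell with factors from 10 kb bins across the genome (-0.79, -0.65 and -0.65, adjusted p = 2.44e-05, 0.000389 and 0.000348, edgeR). The medians over all windows were -0.28 and -0.52 under these scalings, so part of each fall was shared with the typical window. Hist1h4a was a highly open member, at 153.3, 153.0 and 120.8 CPM before and 136.3, 111.8 and 109.9 CPM after, with overlapping groups.

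By class, 1 of 6 H1, 0 of 15 H2a, 0 of 15 H2b, 1 of 12 H3 and 1 of 13 H4 members tested rose. Median log2 changes were 0.32 for H1, 0.14 for H2a, 0.13 for H2b, 0.16 for H3 and 0.26 for H4. With factors from 10 kb bins they were all below 0 (-0.42 to -0.22), beside -0.52 over all windows, and by total cut sites all but that of H1 (0.03) were (-0.16 to -0.04), beside -0.28. With GC offsets they were 0.16 for H1, 0.08 for H2a, 0.06 for H2b, -0.0061 for H3 and 0.12 for H4. The H4 class held both the Hist1h4i gain and the lowest estimate of all, that of Hist1h4a. The 9 H4 members with GGTCCG in the bases searched had a median log2 change of 0.27 at a median level of 63.9 CPM. The 3 matched H4 members without it there had 0.03 at 130.8 CPM. Of those 3, Hist1h4h (log2 change 0.03, 140.4 CPM) and Hist1h4b (0.46, 51.8 CPM) had GGTCCG when a longer stretch was searched. Hist1h4a (-0.25, 130.8 CPM) did not. That split thus depends on the stretch searched and is a description of few genes. All 19 members tested in the first chromosome 13 stretch had estimates above 0 (0.11 to 0.81, 1 called), as they had with offsets for GC content, but 7 had by total cut sites and 3 with factors from 10 kb bins. In the second stretch 22 of 29 had estimates above 0 (-0.25 to 0.65, 1 called), against 12 with GC offsets, 6 by total cut sites and 1 with factors from 10 kb bins. Of all 17469 windows, 9037 were above 0 in the main fit, 8835 with GC offsets, 4260 by total cut sites and 2545 with factors from 10 kb bins.

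**Figure D3:**
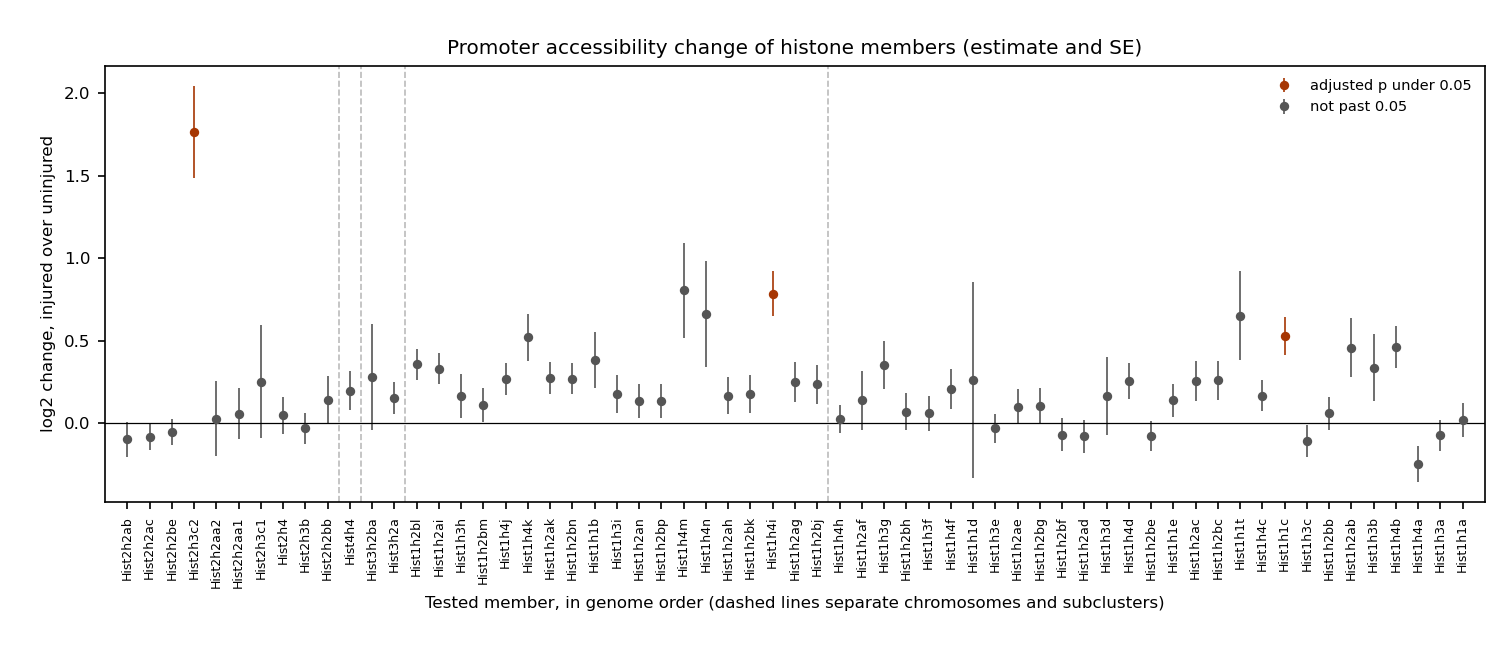
Log2 change of window accessibility (injured over uninjured, estimate and SE) for the 61 members tested, in genome order. The 3 called members are coloured, and all 19 estimates of the first chromosome 13 stretch lie above 0 on this scale, though not by total cut sites or with factors from 10 kb bins.

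Outside chromosome 13, Hist2h3c2 was the only call among 13 members. Hist2h2ac (127.8 CPM), Hist4h4 (125.0 CPM) and Hist2h4 (124.1 CPM) had the highest means over the 6 libraries there. Before injury Hist4h4 (116.6 CPM) lay below Hist2h4 (122.4 CPM) and Hist2h2be (119.7 CPM). Hist4h4, the lone member on chromosome 6, stood at 117.6, 126.5 and 105.6 CPM before and 159.0, 128.8 and 112.4 CPM after injury (log2 change 0.20 ± 0.12, adjusted p = 0.357, edgeR). Hist3h2ba on chromosome 11 varied more among libraries than between groups, at 22.1, 29.7 and 43.2 CPM before and 29.4, 28.8 and 58.0 CPM after. On chromosome 3 the trio Hist2h2ab, Hist2h2ac and Hist2h2be, whose windows overlap, had estimates of -0.10 to -0.05, none past the threshold.

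With overlapping member windows merged, 1 of 37 stretches tested rose, that of Hist1h1c, and 0 fell (2.12% of all windows rose). The stretch of Hist1h4i with Hist1h2ag and Hist1h2bj then had a log2 change of 0.41 (adjusted p = 0.0519, edgeR), and that of Hist2h3c2 with Hist2h2aa2 0.71 (adjusted p = 0.0539, edgeR). Summed over the merged chromosome 13 stretches, the level on the window scale was 2491, 2393 and 2450 CPM before and 3046, 2736 and 2480 CPM after injury. As CPM of all cut sites in cells it was 813, 747 and 794 before and 779, 686 and 698 after, so the direction of the sum depended on the scale. Scaled by total cut sites, 2 members rose and 12 fell. That was a smaller share than fell over all windows, whose median was -0.28. With factors from 10 kb bins across the genome, 1 member rose and 29 fell, again a smaller share than fell over all windows, whose median was -0.52. Hist1h1c then had a log2 change of -0.03 (adjusted p = 0.904, edgeR) and Hist1h4i one of 0.24 (adjusted p = 0.301, edgeR), so both calls were lost. By total cut sites Hist1h1c missed the threshold too (0.23, adjusted p = 0.105, edgeR). Relative to the median of all windows, members lay higher by 0.16, 0.15 and 0.14 under the 3 scalings. These change only 1 factor per library and move all windows nearly alike, so the excess could hardly differ among them. Offsets that differ between windows gave 0.08 for GC content and 0.22 for window level. On the window scale this excess was 0.0549 without injured replicate 1 and 0.22 without injured replicate 3.

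Single libraries moved the calls. Hist2h3c2 passed the threshold with any 1 library left out. Hist1h4i missed it without injured replicate 1 (adjusted p = 0.0679) or injured replicate 2 (0.0569), and Hist1h1c missed it without uninjured replicate 1 or 2 or injured replicate 1 or 2 (0.103 to 0.120, edgeR). Without injured replicate 3, 12 members rose, and calls over all windows rose too, to 753 higher of 18321 tested, from 372 of 17469 with all libraries. Without both libraries of number 3, which share barcodes, 17 members rose and 0 fell, including the 3 called with all libraries. All windows then gave 1047 higher and 749 lower calls of 17183 tested. With the shared barcodes alone left out, 6 members rose, and no count over all windows in that fit is given beside it. Offsets for GC content lowered the members' median excess over all windows from 0.16 to 0.08, and Hist1h4i missed the threshold (log2 change 0.52, adjusted p = 0.0548, edgeR).

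Where in the window the cut sites lay also differed between groups. This split was made after the profiles had been seen. Histone genes are short, and 62 of the 67 members have 1 exon in every transcript and 62 have their coding part within the window. Cut sites were therefore counted apart in the first 500 bp of the gene and in the 250 bp upstream. Summed over members, the ratio of the first to the second was 0.700, 0.730 and 0.701 in uninjured and 0.986, 0.964 and 0.748 in injured libraries. Every injured library lay above every uninjured one, although injured replicate 3 lay near them. Over all protein-coding genes the ratio was 1.26, 1.32 and 1.32 before and 1.33, 1.41 and 1.304 after injury, with overlapping groups. On chromosome 13 the members' ratio was 0.665, 0.692 and 0.675 before and 0.927, 0.908 and 0.720 after. Outside it the ratio was 0.858, 0.900 and 0.823 before and 1.27, 1.25 and 0.876 after. Repeated sequence was unequal between the sides of a start, with 2.7% of stretches upstream and 78.05% downstream at Hist1h3e, and 18.4% and 0% at Hist2h2be. RefSeq starts of members also differed from the start used here, more often upstream than downstream of it. The offset was -85 bases at Hist1h2ak and 81 bases at Hist1h3c, where negative means upstream. The part of repeats and of these offsets in the level of the ratio was not tested.

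**Figure D4:**
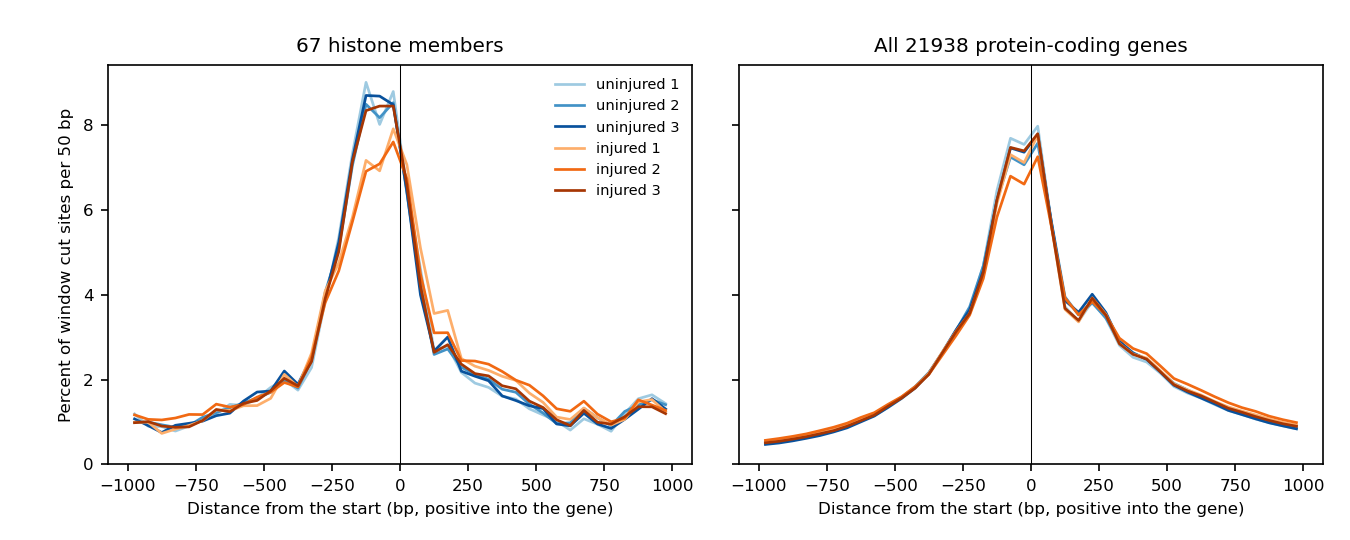
Percent of a window's cut sites in 50 bp steps by distance from the start (positive into the gene), per library, summed over the 67 members and over all 21938 protein-coding genes. At members, injured replicates 1 and 2 lie lower just upstream of the start and higher within the gene, and injured replicate 3 lies with the uninjured libraries.

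The change of this ratio was fitted across all genes, with a term for each library, so that it does not depend on how libraries are scaled to each other. The split had been chosen from the profiles of these members in the same libraries. That choice can favour members over all genes, here and in the tests of each part below, so the shares are descriptive. Of 60 members tested, 5 had a higher ratio after injury and 0 a lower one (edgeR, adjusted threshold of 0.05). Over all 14759 genes tested, 0.264% were higher and 0.183% lower. The median log2 change of the ratio was 0.34 over members and 0.03 over all genes, and 52 of 60 members against 55.1% of all genes had an estimate above 0. Of 396 other genes tested that have 1 exon in every transcript, 1 was higher and 0 were lower, with a median of 0.02.

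The 5 members span the H1, H2a, H2b and H4 classes. Hist1h4i had a log2 change of the ratio of 1.03 ± 0.20 (SE, adjusted p = 0.00365). Its first 500 bp held 33.2, 34.8 and 38.2 CPM before and 85.1, 81.4 and 63.7 CPM after, relative to that part of all genes. Its upstream part held 38.8, 36.5 and 33.1 CPM before and 40.9, 36.2 and 36.5 CPM after. Most of the gain of Hist1h4i thus lay within the gene (chr13:22040636-22041362), in all 3 injured libraries. On the scale of the whole window, the 1 kb upstream held 13.02, 13.96 and 12.02 CPM before and 18.3, 14.1 and 15.3 CPM after, and the part from 700 bp downstream on held 2.69, 1.66 and 1.17 CPM before and 5.06, 4.71 and 2.59 CPM after. Hist1h2bb, an H2b gene, followed with 0.85 ± 0.16 (adjusted p = 0.00295), and its first 500 bp held 54.9, 60.9 and 63.4 CPM before and 131.1, 95.6 and 66.6 CPM after. Injured replicate 3 lay just above the uninjured range there. Hist2h4, the H4 gene on chromosome 3, changed by 0.76 ± 0.15 (adjusted p = 0.00595), with 105.0, 118.0 and 90.1 CPM before and 169.4, 153.6 and 107.8 CPM after in its first 500 bp, where the groups overlapped. Its upstream part held 98.3, 89.5 and 71.5 CPM before and 79.2, 57.4 and 69.2 CPM after.

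Hist1h1c changed by 0.72 ± 0.16 (adjusted p = 0.0196). Its first 500 bp held 45.1, 47.7 and 65.7 CPM before and 125.7, 121.7 and 87.4 CPM after, and the groups did not overlap. Hist3h2a, an H2a gene on chromosome 11, changed by 0.54 ± 0.14 (adjusted p = 0.0452). Trim17, not a histone gene, has the same 5′-most start and strand as Hist3h2a and therefore the same value. Hist1h2bb, Hist2h4 and Hist3h2a had not passed the test over the whole window.

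Tested alone, the first 500 bp rose in 4 of 59 members and fell in 0, against 1.66% and 0.654% of all genes. They were Hist1h4i, Hist1h1c, Hist1h4b (log2 change 0.71, adjusted p = 0.0228) and Hist1h4j (0.65, adjusted p = 0.0286, edgeR). With 1 library left out the count ran from 2, without any 1 of uninjured replicates 1 and 2 or injured replicates 1 and 2, to 24, without injured replicate 3. The shares over all genes in those fits are not given, so these counts have no background beside them. The 250 bp upstream passed the test in 0 of 58 members, against 2.02% of all genes higher and 0.567% lower (edgeR). At an unadjusted p under 0.05, 5 members were higher and 1 lower upstream, against 8.71% and 6.87% of all genes. Median log2 changes were 0.33 in the first 500 bp and 0.04 upstream, and without injured replicate 1 the former was 0.17. By class the upstream median was 0.36 for the 5 H1 members tested, 0.05 for H2a, 0.04 for H2b, -0.00055 for H3 and 0.04 for H4. In divergent pairs, bases upstream of a gene can lie near the start of its partner, so members share cut sites here too. Counting only the bases of chromosome 13 that lie in no other member's first 500 bp as upstream, the first 500 bp held 47.5%, 48.8% and 48.1% of the cut sites of both parts before and 56.2%, 55.2% and 49.7% after injury. Without the deepest barcode of each library these shares were 47.6%, 48.8% and 48.1% before and 56.2%, 55.2% and 49.6% after.

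**Figure D5:**
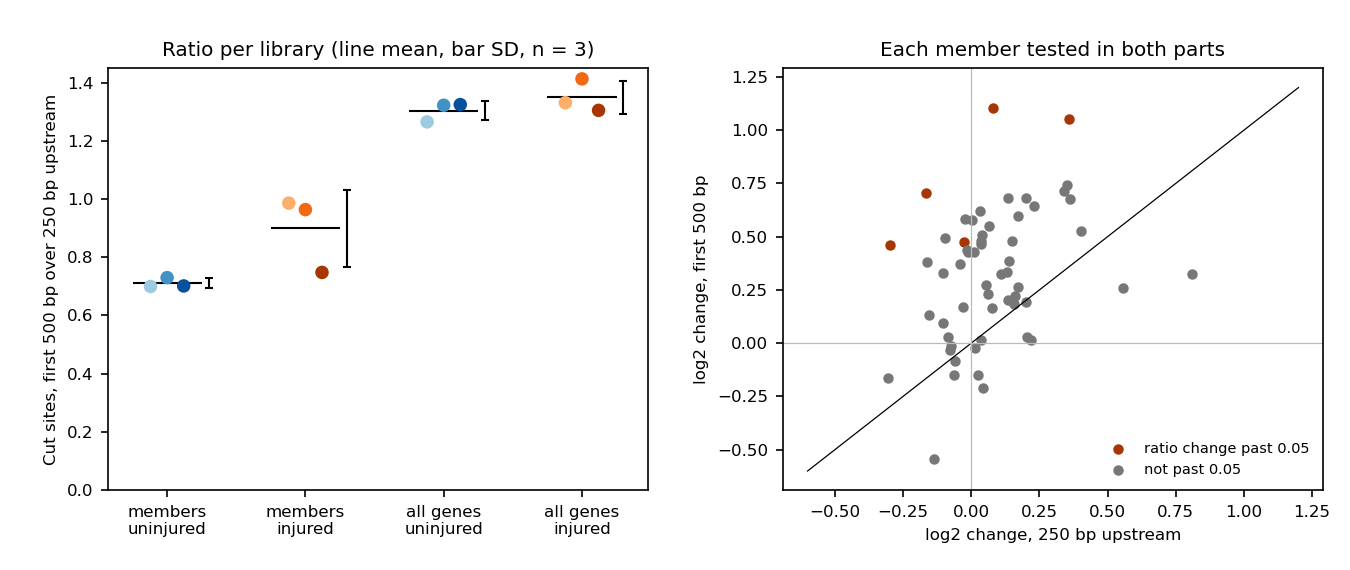
Left, ratio of cut sites in the first 500 bp to those in the 250 bp upstream per library, summed over members or over all genes (points, with mean line and SD bar, n = 3). Right, log2 change of each member tested in both parts, where most points lie above the diagonal and the 5 coloured members passed the test of the ratio.

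With 1 library left out, 2 to 4 members had a higher ratio when it was any but injured replicate 3, and 16 without that library. Without injured replicate 1 or uninjured replicate 1 the count was 2. Without both libraries of number 3 it was 6. The shares over all genes in these fits are not given, so the counts cannot be read against the background. The members' median log2 change of the ratio was 0.22 without injured replicate 1 and 0.43 without injured replicate 3. Hist1h4i passed in each of these fits, while Hist3h2a missed the threshold without any 1 of uninjured replicates 1 to 3 or injured replicates 1 and 2 (adjusted p from 0.0543 to 0.324, edgeR). Hist1h1c missed it without uninjured replicate 1 or 2 or injured replicate 1 (0.124 to 0.185), Hist2h4 without uninjured replicate 1 (0.0704) and Hist1h2bb without injured replicate 1 (0.0775, edgeR).

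Fragment lengths were compared as well, since short fragments come from nucleosome-free DNA. Fragments under 100 bp made up 30.6 ± 1.74% at member windows before and 29.6 ± 2.66% after injury (SD, n = 3 each). Over all genes they made up 38.7 ± 1.92% and 37.3 ± 3.86%. Members thus had fewer short fragments than windows in general in both groups, and the groups overlapped.

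Cut sites at the members were also counted per cell. No doublet caller was run, and doublets were kept. Each cell was thinned to 4000 cut sites, and no cell was shallower than that. A cut site in the chromosome 13 member windows was then found in 89.2%, 84.9% and 88.7% of cells before and 91.6%, 83.6% and 82.2% of cells after injury. Without thinning the shares were 96.0%, 92.9% and 95.2% before and 96.9%, 88.8% and 89.9% after, at median depths of 8710 to 21702 fragments per cell. The groups overlapped either way, and no other windows of the same extent were counted beside these. Thinned cells with at least 3 cut sites in the first 500 bp of chromosome 13 members made up 14.8%, 13.5% and 16.1% before and 20.9%, 16.4% and 10.6% after. Injured replicate 1 was highest and injured replicate 3 lowest, so the libraries of that group lay on both sides of the uninjured range.

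Of the genes that act on histone genes, most were open. Zfp473, named after its values were seen, was the exception in its list, at 0.886 ± 0.675 CPM before and 1.70 ± 0.860 CPM after injury (SD, n = 3 each). Npat, which organises histone transcription, stood at 176.8 ± 15.03 CPM before and 165.4 ± 10.3 CPM after injury (SD, n = 3 each; log2 change -0.09, adjusted p = 0.537, edgeR). Slbp, which binds the histone mRNA stem-loop, stood at 160.7 ± 8.15 and 148.4 ± 8.72 CPM (log2 change -0.11, adjusted p = 0.409, edgeR). Under the other scalings, which lowered the median of all windows, both fell. By total cut sites the log2 changes were -0.38 for Npat and -0.40 for Slbp (adjusted p = 0.0116 and 0.00463, edgeR), and with factors from 10 kb bins -0.63 and -0.66 (adjusted p = 0.000606 and 0.000345, edgeR). Of 15 genes of histone transcription and mRNA processing, 0 passed the test (3 lower and 0 higher at an unadjusted p under 0.05), with a median log2 change of -0.11. Of 12 histone chaperones, which carry histones to DNA, 0 passed (5 lower and 0 higher at an unadjusted p under 0.05), with a median of -0.09. Beside these lists stand a median of 0.01 over all windows, of which 10.7% were higher and 10.6% lower at that unadjusted threshold.

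Among 25 genes of DNA replication and S phase, 1 rose and 1 fell, with a median log2 change of -0.06. Cdt1, which licenses replication origins, rose from 67.7 ± 8.27 to 99.2 ± 11.6 CPM (SD, n = 3 each; log2 change 0.54, adjusted p = 0.0206, edgeR). Scaled with factors from 10 kb bins its log2 change was 0.00477 (adjusted p = 0.984, edgeR), and by total cut sites it was 0.25 (0.0883). Cdk2, the kinase partner of cyclin E, fell from 84.6 ± 2.03 to 65.7 ± 2.88 CPM (log2 change -0.36, adjusted p = 0.0423, edgeR). Of 11 genes listed as replication-independent histone variants, 0 rose and 1 fell, with a median of -0.06. H2afv, which encodes an H2A.Z variant, fell from 188.3 ± 11.9 to 151.2 ± 4.45 CPM (log2 change -0.31, adjusted p = 0.0324, edgeR). By total cut sites the log2 changes of Cdk2 and H2afv were -0.65 and -0.60, beside a median of -0.28 over all windows. With factors from 10 kb bins they were -0.90 and -0.86, beside -0.52. The calls of Cdt1, Cdk2 and H2afv were each lost without uninjured replicate 1 or 2 or injured replicate 1 or 2, with adjusted p from 0.0502 to 0.142 (edgeR). That of Cdk2 was also lost without uninjured replicate 3 (0.0564) or the deepest 5% of barcodes (0.0877). With offsets by window level Cdk2 (0.103) and H2afv (0.126) missed the threshold, and with windows of 500 bp either side Cdt1 (0.113) and H2afv (0.0777, edgeR) did.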

How the data were processed

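Fragment files deposited by the authors list deduplicated fragments with their barcode, and their count column holds read pairs per fragment. Start and end positions in the deposited files are the other values used. Per the submitters' processing notes, Cell Ranger 2.0.0 and mm10 were used. Matrices were not used. No fragment passed a GRCm38 chromosome end.

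Both ends of each fragment were counted in windows reaching 1000 bp to each side of a gene's 5′-most start, per library, over barcodes with 2000 or more fragments. Groups of 3 libraries were compared with edgeR 4.0.16 in R 4.3.3 (quasi-likelihood, robust, TMM, filterByExpr), adjusted over all windows with a threshold of 0.05. The test was checked on simulated data with 17047 windows, where it called 139 of 200 windows given a log2 change of 1, and 17 unchanged ones. At a log2 change of 0.5 it called 78 of 200, and 11 unchanged ones. In both, the share of unchanged windows among those called was above the threshold of 0.05. The ratio test called 73 of 197 changes of a log2 of 1 over 14627 genes, and 2 unchanged ones. Named were all called members, the highest and lowest of each class, the 3 largest changes each way, members outside chromosome 13 and the germ-line members. From the lists, called genes, Npat and Slbp were named by a fixed rule. Other markers, Zfp473 and the named genes lying among the members were added outside it. Members and lists were chosen with earlier results of these data known, and the split at the start after seeing these profiles. Alternatives covered scaling, filters, windows, barcodes, DESeq2 1.42.0 and left-out libraries. Libraries come from separate animals per the labels' protocols. Shares of cells and cut sites carry counting error besides.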

Additional observations from a re-analysis of the deposited data

How the results depend on the processing

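Counts of calls depended on scaling and on single libraries, while no alternative on the window scale gave more lower than higher members. With factors from 10 kb bins, 9831 of all 17469 windows and 29 of 61 members fell, 1 member rose, and the medians were -0.36 on chromosome 13 and -0.48 elsewhere. Hist1h1c then stood at -0.0278. By total cut sites, 6574 of the 17469 windows and 12 of the 61 members fell, with medians of -0.12 and -0.23. Offsets by window level gave 5 members higher, with no count of all windows higher given here. They gave 101 of all windows lower. DESeq2 gave 6 members higher, and 624 windows higher and 553 lower. Without the deepest 5% of barcodes 6 members rose and Hist2h2ab stood at 0.00228. With windows of 500 bp Hist1h3c stood at 0.10. Merged windows gave 1 call. Barcodes found in more than 1 library, when left out, gave 6 members higher. Without both libraries of number 3, 17 members, 1047 windows higher and 749 lower were called, and 23 members rose in the first 500 bp. These last 2 settings, and all alternatives of the split at the start, were chosen after seeing the data. Where no count of all windows or genes called higher stands beside that of members, here or below, the latter cannot be read against the background.

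Leaving out 1 library gave 1 to 12 members higher in every case with 0 lower, 68 to 753 windows higher and 28 to 640 lower, 2 to 16 members with a higher ratio and 2 to 24 members higher in the first 500 bp. The highest of each came without injured replicate 3, and the cause was not tested. Same-numbered libraries correlated by 0.0333, 0.165 and 0.198 in their deviations from the group means, and injured replicate 1 correlated best with uninjured replicate 2 (0.0965), so pairing was not established by this check, although same-numbered animals share an age in the labels and the libraries of number 3 share barcodes. With the replicate block, 9 members rose and 1 fell (Hist1h4a, adjusted p = 0.0449, edgeR). The added calls included Hist1h2bl, Hist1h4b, Hist1h4k and Hist1h2ai (adjusted p from 0.0260 to 0.0355, edgeR), and 789 windows rose and 914 fell.

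Members at low levels, such as Hist1h1d and Hist1h4n, have wide errors. At this depth, changes of a log2 of 0.5 were recovered in 39% of simulated windows.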
